A study of Mus musculus with 6 samples.

Results

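Gene expression was compared between the basal epidermis and the hair matrix of wild-type mice, with 2 of the 6 arrays of the series, 1 for each cell population. The first array held RNA of cells sorted by FACS as basal epidermal cells from mice labelled Ezh1/2 WT. The second held RNA of cells sorted as matrix cells from mice with the same label. Both came from skin of 14-day-old mice of both sexes on a mixed C57B6 and CD1 background. A WT outer root sheath (ORS) array and the same 3 populations of mice labelled Ezh1/2 2KO, a double knockout of the Polycomb genes Ezh1 and Ezh2, complete the series and are used below only beside the WT values. All groups share the age and background, and the 2KO basal epidermis came from female mice alone. The labels give neither the number of mice behind a sample, nor the alleles and cells in which Ezh1 and Ezh2 were deleted. For the sort the series text cites an earlier study and names no surface markers, so that genes used for the gates cannot be told apart here from others.

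The epidermis is renewed by its basal layer, whose cells sit on a basement membrane, divide, and leave it to form the spinous, granular and cornified layers. The hair matrix lies at the base of the follicle around the dermal papilla. Its cells divide rapidly during hair growth and then become the concentric layers of the hair shaft and of the inner root sheath, which moulds the shaft. Both tissues are built of keratinocytes but use different keratin genes, and follicle lineages are known to be directed by WNT, BMP, Sonic hedgehog and Notch signals.

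The values are MAS5 signals, the brightness of a set of short probes for a transcript after the submitters' processing, scaled so that the trimmed mean of each array is 500. A gene was represented by its brightest probe set over the 6 arrays. The median signal over all probe sets and arrays, 83.2, served as a floor to which dimmer values were raised, and 11270 of 18193 genes had a signal above it on at least 1 array of the pair and counted as measured. Ratios are basal epidermis over matrix, a ratio with a side below the floor is written as at least N-fold, and a gene was called from 2-fold, the fold the series text uses. With 1 array for each population there is no spread between replicates, so no difference below was tested or has a p-value. A MAS5 signal cannot be set against that of another probe set, so levels are compared within a gene. The exception is the summed signals of marker lists, which add all matched members, those below the floor included. In such a sum the brightest probe sets weigh most.

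The markers went with the labels in the comparison of basal epidermis with matrix. Krt14, the type I keratin of basal keratinocytes, read 26576 in basal epidermis and 4805 in matrix (5.53-fold higher), and Col17a1, a collagen of the hemidesmosome, read 21573 in basal epidermis and 1200.0 in matrix (18.0-fold higher). Msx2, a homeobox factor of the matrix, read 268 in basal epidermis and 6424 in matrix (24.0-fold lower), and Krt25, a keratin of the inner root sheath, read 1171 in basal epidermis and 13303 in matrix (11.4-fold lower). Krt14 on the matrix array and Krt25 on the basal array both lay above the floor. In WT ORS Krt14 and Col17a1 read 23776.5 and 13286, far above their matrix values. They thus set basal epidermis apart from matrix but not from ORS. In sorted cells a smaller share of a cell type in the sample and less RNA of a gene per cell cannot be told apart.

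Of 11270 measured genes, 1560 (13.8%) passed 2-fold upwards and 1279 (11.3%) downwards in basal epidermis relative to matrix. The larger differences leaned to the basal side, with 631 genes higher and 238 lower at 4-fold, 272 and 75 at 8-fold, and 27 and 7 at 32-fold. The matrix signal lay below the floor for 24.4% of the higher genes, and the basal signal for 15.2% of the lower genes. The median log2 ratio of all measured genes was -0.12. These counts rest on the deposited scaling to a like trimmed mean. Scaled to the spiked hybridisation controls in its place, 1112 genes were higher and 2917 lower, so that higher genes made up 27.6% of the calls against 54.9%, and the median moved by -0.40 on the log2 scale. Where a gene had further measured probe sets, 63.4% of those of higher genes and 57.2% of those of lower genes were also past 2-fold the same way, and 96.5% and 98.0% had the same sign. The ratio of 3-prime to 5-prime Actb control signals, a gauge of RNA integrity, was 1.39 on the basal array and 1.49 on the matrix array.

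**Figure D1:**
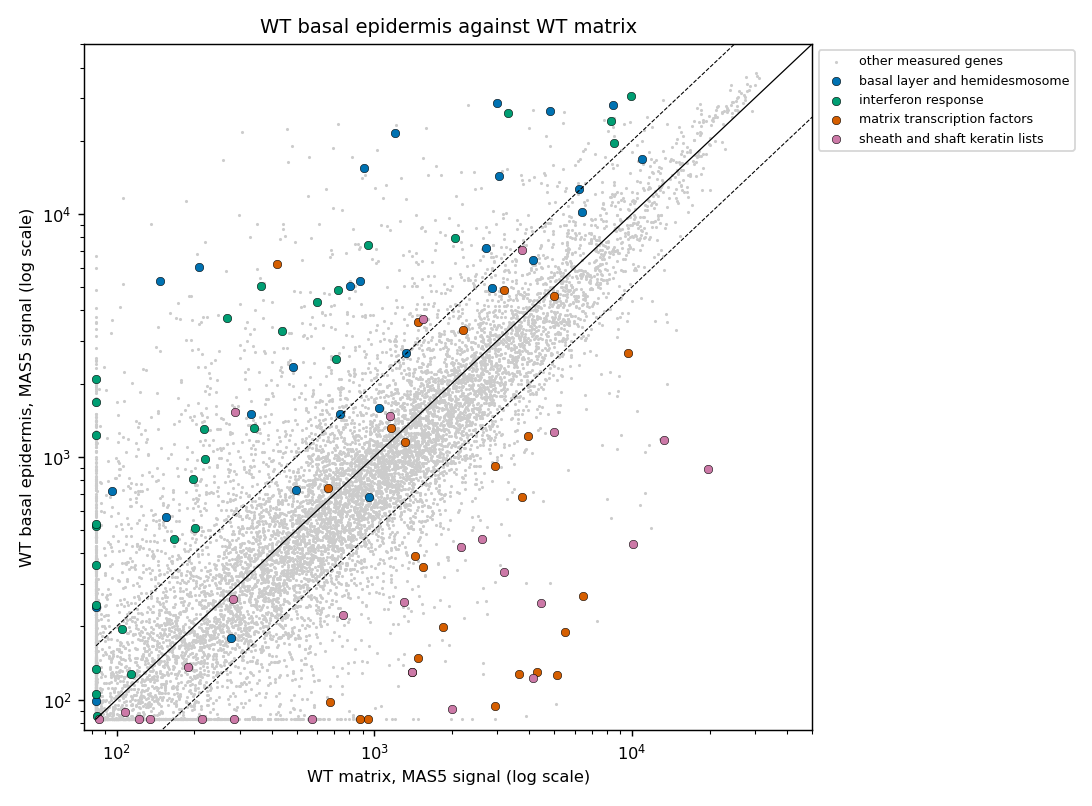
Signals of the measured genes on the WT basal epidermis array (vertical, log scale) against the WT matrix array (horizontal, log scale), 1 point per gene, with dashed lines at 2-fold and signals below the floor drawn at the floor. Most basal layer and interferon genes lie above the upper dashed line. Most matrix transcription factors and most members of the inner root sheath and hair shaft keratin lists, not all of them keratins, lie below the lower one.

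The genes of the largest basal ratios had varied roles, and several are given here. Ifi202b, an interferon-inducible DNA-binding protein, read 11656 in basal epidermis and 106 in matrix (110.2-fold higher). Aldh3a1, an aldehyde dehydrogenase, read 6687 in basal epidermis and 70.4 in matrix (at least 80.4-fold higher), and the alcohol dehydrogenase gene Adh7 read 3540.4 in basal epidermis and 67.6 in matrix (at least 42.6-fold higher). The chloride channel accessory genes Clca3a2 and Clca3a1 were 70.6-fold and 48.6-fold higher. Tgfbi and Postn, which encode related secreted proteins that bind integrins and matrix, were 64.3-fold and 49.0-fold higher. The prostaglandin transporter gene Slco2a1, galectin-9 (Lgals9), Fcgbp, Npl, Cyp4b1, Lmo1, Sult5a1 and the metalloprotease gene Adam8 lay between 33.9-fold and 66.6-fold higher. Of these, Slco2a1, Lgals9, Npl, Cyp4b1 and Sult5a1 were below the floor in matrix, so that their ratios are lower bounds.

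At the matrix end, the tight junction gene Cldn10 led. It read 95.9 in basal epidermis and 5086 in matrix (53.0-fold lower). Aldh1a3, which makes retinoic acid, read 85.3 in basal epidermis and 3876 in matrix (45.4-fold lower). The ferric reductase gene Cybrd1, the kinase gene Dclk3, Prr5l, and Bmper, which encodes a BMP-binding protein, were at least 17.0-fold to at least 35.4-fold lower. Selenbp1, a selenium-binding protein, read 511 in basal epidermis and 11851 in matrix (23.2-fold lower), and Mt4, a metallothionein of stratified epithelia, read 633 in basal epidermis and 10691 in matrix (16.9-fold lower). The sialyltransferase gene St8sia6 was at least 17.8-fold lower.

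Genes that anchor cells to the basement membrane were higher in basal epidermis. Of 28 measured genes of a list of basal keratins, integrins and basement membrane, 19 (67.9%, against 13.8% of all genes) were at least 2-fold higher and 0 lower, with a median log2 ratio of 1.63. Col7a1, the collagen of anchoring fibrils, read 5271 in basal epidermis and 147 in matrix (35.8-fold higher). The laminin-332 subunit genes Lamb3 and Lama3 were 28.9-fold and 6.26-fold higher. The hemidesmosome genes Dst, Itgb4, Itga6 and Plec were 16.9-fold, 4.83-fold, 4.69-fold and 2.66-fold higher. Of the integrins outside the hemidesmosome, Itgb1 and Itga3 were 2.02-fold and 2.04-fold higher, while Itgav stayed within the threshold (1.72-fold). The type IV collagen genes split by chain. Col4a5 and Col4a6 were 6.04-fold and 7.51-fold higher, whereas Col4a1 and Col4a2 stayed within the threshold (1.52-fold and 1.48-fold) and read 7089.8 and 3771 in WT ORS, above both other WT arrays. Trp63, the master factor of stratified epithelia, read 10141 in basal epidermis and 6411 in matrix (1.58-fold), within the threshold.

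The keratin genes lie in a type I and a type II cluster, and both held genes of opposite ratio side by side. Of 19 measured keratins of the type I cluster, 6 were higher and 9 lower in basal epidermis. Of 17 of the type II cluster, 7 were higher and 4 lower. Of all genes, 13.8% were higher and 11.3% lower. Krt25, Krt26, Krt27 and Krt28, the type I keratins of the inner root sheath, stand in a row and were 11.4-fold, at least 6.91-fold, 9.52-fold and 23.1-fold lower. The next measured gene is Krt10, the type I keratin of the suprabasal epidermis, which read 28000.4 in basal epidermis and 2309 in matrix (12.1-fold higher). The gene measured after Krt10, Krt23, read 67.7 in basal epidermis and 2403 in matrix (at least 28.9-fold lower). Further along, the shaft keratins Krt33a, Krt31, Krt35 and Krt36 were 5.12-fold, 5.16-fold, 22.1-fold and 21.8-fold lower. Krt32, a keratin of the shaft cuticle that lies between Krt31 and Krt35, went the other way and read 1528 in basal epidermis and 287 in matrix (5.33-fold higher). Past them, the basal keratins Krt15 and Krt14 and the companion layer and wound keratins Krt16 and Krt17 were 9.53-fold, 5.53-fold, 7.93-fold and 2.65-fold higher.

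In the type II cluster Krt75, a companion layer and medulla keratin, read 210.2 in basal epidermis and 7331 in matrix (34.9-fold lower). Its neighbours Krt6b, Krt6a and Krt5 were 38.2-fold, 39.8-fold and 3.33-fold higher. After them Krt71 and Krt73, the type II partners of the inner root sheath, were 17.8-fold and 5.74-fold lower, and Krt72 stayed within the threshold (1.22-fold lower). Krt1, the type II partner of Krt10, read 16394 in basal epidermis and 462 in matrix (35.5-fold higher). Krt77 beside it was 34.5-fold higher, and Krt79, a keratin of the upper follicle, 10.7-fold. Krt5 and Krt14 pair in the same filaments, and the matrix array retained 8423 and 4805 signal units of them. Probes of closely related keratins, such as Krt6a and Krt6b, may bind each other's transcripts, which these values cannot separate.

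**Figure D2:**
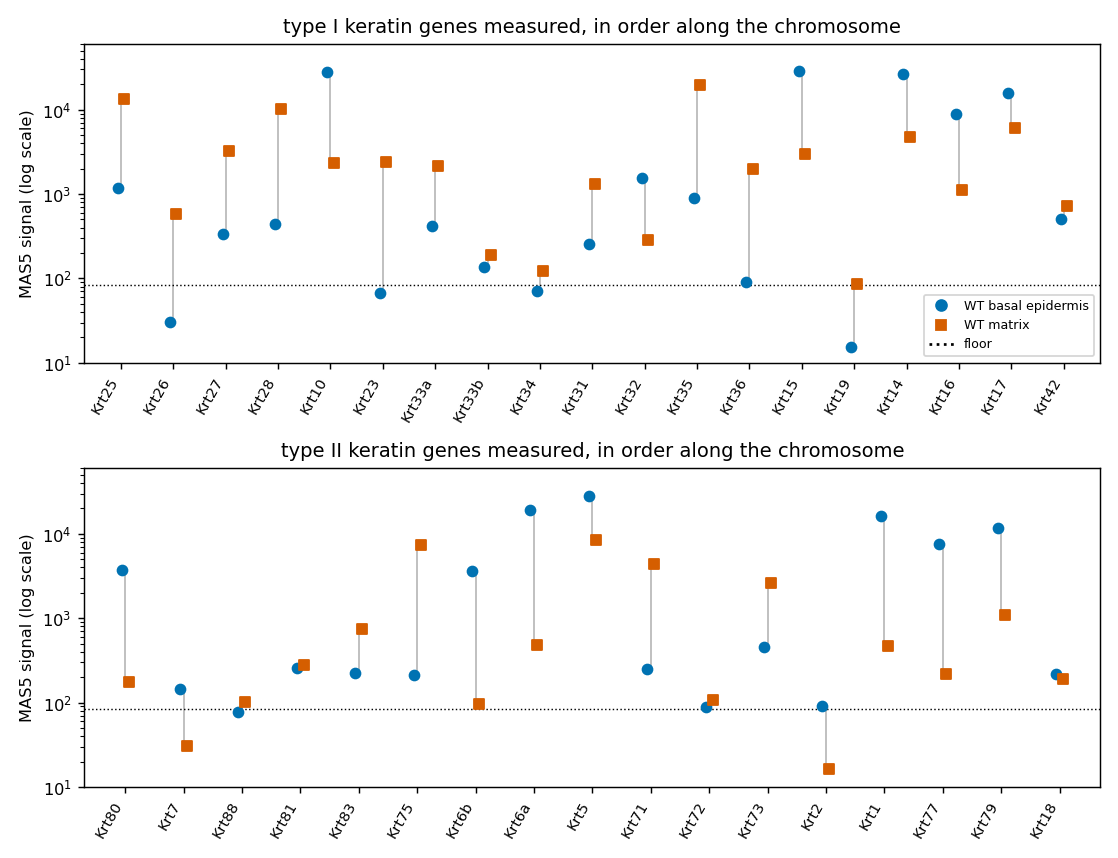
Signals of the measured keratin genes in their order along the type I (upper panel) and type II (lower panel) clusters, on a log scale, for WT basal epidermis and WT matrix. Runs of matrix-high sheath and shaft keratins alternate with runs of basal-high epidermal keratins, and Krt32 stands apart from its matrix-high neighbours.

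The promoters of Krt25, Krt28 and Krt31 are shown as examples of matrix-high keratins of the sheath and the shaft, since LEF1 is known to bind promoters of hair keratin genes. Each runs from 250 bases before to 50 after the annotated start, 5′ to 3′, from RefSeq on GRCm38.p6. Capitals mark TATAAA, the TATA box, and CTTTGA, the core of the LEF1/TCF motif, on either strand.

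Krt25 promoter, chr11:99322902-99323201, minus strand: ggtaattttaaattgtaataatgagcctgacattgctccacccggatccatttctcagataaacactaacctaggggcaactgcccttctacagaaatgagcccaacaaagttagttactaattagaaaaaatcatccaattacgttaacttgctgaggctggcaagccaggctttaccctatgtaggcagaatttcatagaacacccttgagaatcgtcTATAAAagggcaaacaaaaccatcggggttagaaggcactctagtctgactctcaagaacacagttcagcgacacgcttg

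Krt28 promoter, chr11:99374854-99375153, minus strand: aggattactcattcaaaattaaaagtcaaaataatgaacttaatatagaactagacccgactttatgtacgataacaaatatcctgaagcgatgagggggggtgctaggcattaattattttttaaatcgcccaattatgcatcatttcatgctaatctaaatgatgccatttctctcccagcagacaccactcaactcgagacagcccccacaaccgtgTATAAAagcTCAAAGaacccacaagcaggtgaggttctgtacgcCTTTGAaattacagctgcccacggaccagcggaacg

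Krt31 promoter, chr11:100050502-100050801, minus strand: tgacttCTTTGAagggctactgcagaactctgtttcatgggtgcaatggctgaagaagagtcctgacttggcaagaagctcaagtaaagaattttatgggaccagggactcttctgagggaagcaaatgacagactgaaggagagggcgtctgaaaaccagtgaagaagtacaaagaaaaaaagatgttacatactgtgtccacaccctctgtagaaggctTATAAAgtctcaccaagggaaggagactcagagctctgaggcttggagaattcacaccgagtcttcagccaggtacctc

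All 3 hold a TATA box, Krt28 holds 2 LEF1/TCF cores, Krt31 holds 1 and Krt25 holds 0. TATAAA occurs in 13.6% of all 32851 promoters of the table and CTTTGA in 16.0%. Among promoters of genes lower in basal epidermis the shares were 8.86% and 12.4%, so that neither motif was more common near matrix-high genes at large. A match is a run of letters and not a shown binding site.

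Sheath and shaft genes outside the keratins were lower in part. Of 17 measured inner root sheath genes 11 (64.7%, against 11.3% of all genes) were lower, with a median of -1.98, and 6 of these were keratins described above. Outside the keratins 5 of 10 were lower and 1 higher. Tchh, the trichohyalin that hardens the sheath, read 1266 in basal epidermis and 4985 in matrix (3.94-fold lower). Padi3, which converts arginine to citrulline in trichohyalin, read 123 in basal epidermis and 4144 in matrix (33.8-fold lower). Gata3, a transcription factor of the sheath that the epidermis uses too, was the 1 member higher in basal epidermis (2.39-fold). Of 38 keratin-associated protein genes, which fill the shaft between its filaments, 10 were measured. Of these 6 (60%, against 11.3% of all genes) were lower and 0 higher. They were led by Krtap7-1 (20.7-fold) and Krtap8-1, which read 706 in basal epidermis and 11200.4 in matrix (15.9-fold). S100a3, a calcium-binding protein of the hair cuticle, was 16.0-fold lower.

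Genes of the layers above the basal layer were mostly higher on the basal array. Of 26 measured suprabasal genes, 15 (57.7%, against 13.8% of all genes) were higher and 2 (7.69%, against 11.3%) lower, with a median of 1.12. Krtdap and Calm4, early differentiation genes, were 30.8-fold and 15.6-fold higher, and Dmkn and Sbsn, secreted proteins of the same layers, 5.65-fold and 5.25-fold. The lower pair was Calml3 (5.83-fold) and the transcription factor gene Grhl1 (2.45-fold). Krt1 and Krt10 rank with these genes, so that transcripts known from differentiating cells were above their matrix level in a sample labelled basal.

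The cornified envelope list was mixed. Of 34 measured members of 49 matched, 18 (52.9%) were higher and 2 lower, with a median of 1.05. The small proline-rich genes Sprr2f, Sprr1b, Sprr1a and Sprr2d were at least 16.1-fold, 14.9-fold, 8.84-fold and 8.59-fold higher. The kallikrein proteases Klk8 and Klk7, which cleave cell junctions during shedding, were at least 29.0-fold and 11.2-fold higher. Other envelope genes did not follow. Lor, the main protein of the envelope, read 308 in basal epidermis and 1077 in matrix (3.49-fold lower), and involucrin (Ivl) read 295 in basal epidermis and 627 in matrix (2.13-fold lower). Filaggrin (Flg) read 207 and 218, and the 7 measured late cornified envelope genes all lay within the threshold. The order along the epidermal differentiation complex held genes on both sides, with 10 of 29 measured genes higher and 5 lower. Of all genes, 13.8% were higher and 11.3% lower.

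Of 27 measured genes of barrier lipids, 12 (44.4%, against 13.8% of all genes) were higher and 2 (7.41%, against 11.3%) lower (median 0.49). The ceramidase gene Acer1, the sphingomyelin synthase gene Sgms2 and the ceramide synthase gene Cers3 were 7.31-fold, 7.08-fold and 2.87-fold higher. Elovl4 and Elovl7, which lengthen fatty acids, were 3.33-fold and 5.32-fold higher. The lipoxygenase gene Alox12 was the clearest exception, with 68.7 in basal epidermis and 475 in matrix (at least 5.71-fold lower).

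Outer root sheath and companion layer genes were higher more often than lower. Of 25 measured, 13 (52%, against 13.8% of all genes) were higher and 4 (16%, against 11.3%) lower in basal epidermis. Sox9, a stem cell factor of the follicle, read 3017 in basal epidermis, 186 in matrix and 5089 in WT ORS. Fst, Plet1, Lrig1 and Foxc1 had the same order of basal epidermis over matrix (17.8-fold, 14.1-fold, 18.3-fold and 10.7-fold). Lhx2, a stem cell factor, read 141 in basal epidermis, 2644 in matrix and 4349 in WT ORS. The stem cell gene Lgr5 read 185, 558 and 2450.3, and Tcf7l1 read 184, 304 and 1736 in that same order. These 3 genes were brightest on the ORS array and dimmest on the basal array, although Tcf7l1 differed by less than the threshold between basal epidermis and matrix.

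Transcription factors known from the matrix were mostly lower in basal epidermis, homeobox genes and others alike. Of 26 measured matrix factors, 18 (69.2%, against 11.3% of all genes) were lower and 2 (7.69%, against 13.8%) higher, with a median of -2.30. Lef1, the WNT effector of the matrix, read 126 in basal epidermis and 5115 in matrix (40.5-fold lower). Msx1, the relative of Msx2, read 130.2 in basal epidermis and 4277 in matrix (32.8-fold lower), and Hoxc13, required for hair keratins, read 189 in basal epidermis and 5489 in matrix (29.1-fold lower). All 5 measured Dlx genes were lower, Dlx3 31.3-fold, Dlx2 28.6-fold, Dlx4 at least 11.4-fold, Dlx1 at least 10.6-fold and Dlx5 2.22-fold. Foxn1, the gene mutated in nude mice, was 6.88-fold lower, Cux1 5.52-fold, and the proliferation-linked Mycn and Myb 9.32-fold and 9.94-fold. The exceptions were Bcl11b, which read 6206 in basal epidermis and 418 in matrix (14.8-fold higher), and the vitamin D receptor gene Vdr (2.42-fold higher).

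A wider set held 114 measured factors of developmental families. Of these, 47 (41.2%, against 13.8% of all genes) were higher and 19 (16.7%, against 11.3%) lower (median 0.62). The leaders were the ETS factor gene Ehf, which read 2789 in basal epidermis and 19.1 in matrix (at least 33.5-fold higher), and the Iroquois homeobox gene Irx3, which read 9869.6 in basal epidermis and 299 in matrix (33.0-fold higher). Irx5, Sox7, the aryl hydrocarbon receptor gene Ahr and Satb1 were 24.2-fold, at least 23.8-fold, 17.9-fold and at least 16.8-fold higher. Epas1 and Hif1a, the oxygen-sensing factors, were 9.79-fold and 3.91-fold higher. Satb1, Rora and Sox6 read 282, 378 and 77.5 in WT ORS, against 1397, 3434 and 762 in basal epidermis and 55.7, 402 and 15.4 in matrix, so that each was highest in basal epidermis of the 3 WT arrays. Klf4, a barrier factor, was 2.22-fold higher, and Tfap2a, Tfap2b and Tfap2c were within the threshold.

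**Figure D3:**
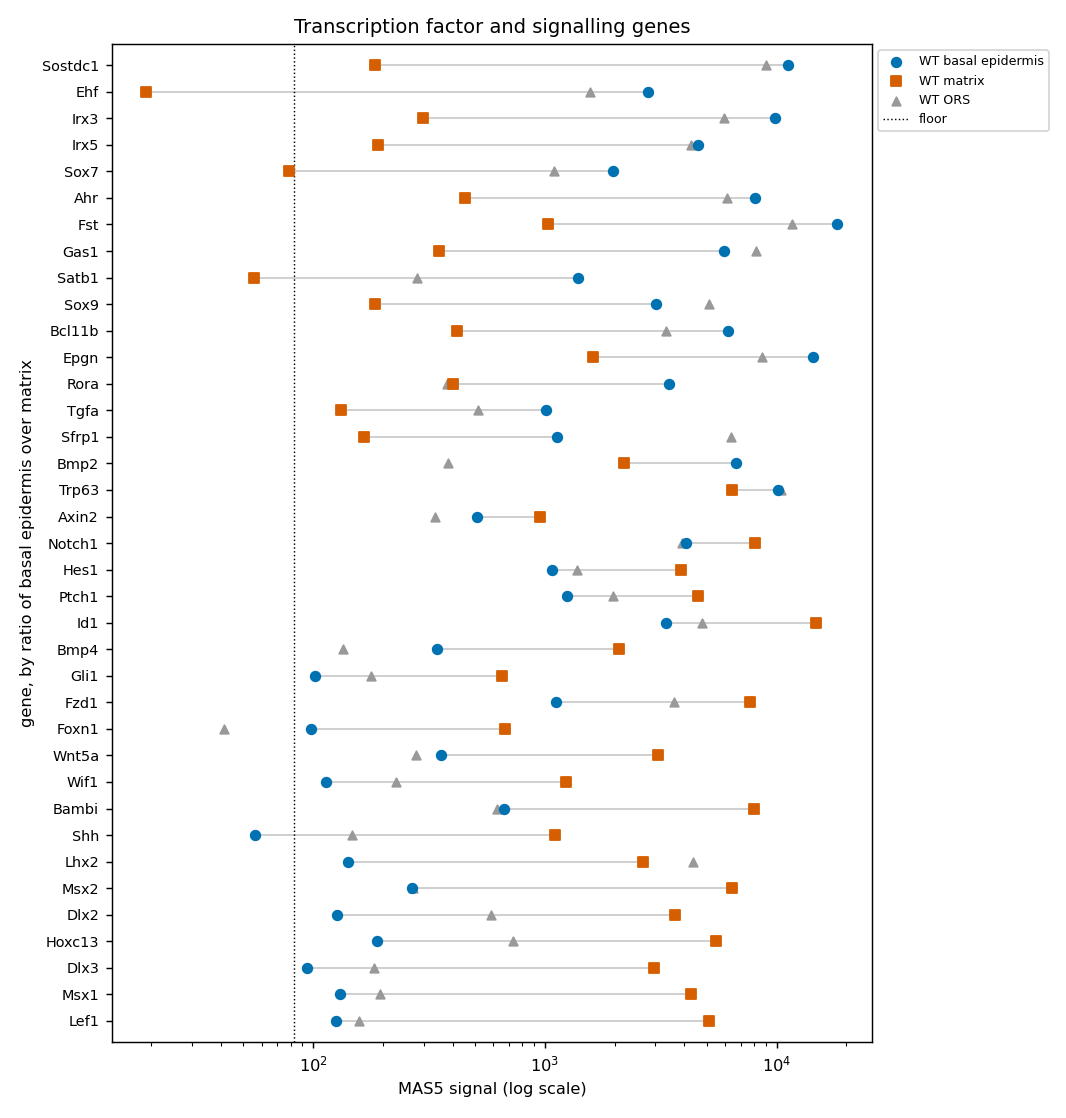
Signals of transcription factor genes and signalling genes on the WT basal epidermis, WT matrix and WT ORS arrays, on a log scale, ordered by the ratio of basal epidermis over matrix. The matrix homeobox genes and Lef1 sit far to the right of their basal and mostly of their ORS values, and the order turns at the epidermal factors at the top.

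Signalling genes divided by pathway and by role. WNT proteins bind Frizzled and LRP receptors and release beta-catenin to act with LEF1 and TCF. Of the ligands, Wnt5a read 358 in basal epidermis and 3084 in matrix (8.62-fold lower), and Wnt11 and Wnt10b were 2.77-fold and at least 2.71-fold lower. Wnt7b, Wnt10a and Wnt16 were 4.92-fold, 2.6-fold and at least 3.07-fold higher. Of 17 measured receptors, 7 (41.2%, against 11.3% of all genes) were lower. Fzd1 among them read 1113 in basal epidermis and 7660.3 in matrix (6.88-fold). Fzd5 (6.86-fold), Fzd2 (4.44-fold) and the WNT5A receptor gene Ror2 (at least 7.38-fold) were others. Lgr6 and Ror1 were 2.75-fold and 2.11-fold higher. The secreted antagonists stood on both sides. Sostdc1, which binds LRP receptors and BMPs, read 11264 in basal epidermis and 186 in matrix (60.6-fold higher), and Sfrp1 was 6.76-fold higher, whereas Wif1 and Notum were 10.9-fold and at least 6.73-fold lower. The general target gene Axin2 read 509.5 in basal epidermis and 957 in matrix (1.88-fold), and Ctnnb1, beta-catenin itself, 14549.5 and 18485. Neither reached the threshold, but both dimmer probe sets of Ctnnb1 did (log2 ratios of -1.05 and -1.45), and Axin2 did when scaled to the hybridisation controls.

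Hedgehog signalling had its ligand, receptor and target together on the matrix side. Shh, the ligand, read 56.2 in basal epidermis and 1112 in matrix (at least 13.4-fold lower). The receptor and target gene Ptch1 read 1248 in basal epidermis and 4601 in matrix (3.69-fold lower), and the target transcription factor gene Gli1 was 6.41-fold lower. The co-receptor genes Gas1 and Cdon went the other way, 16.9-fold and 6.21-fold higher, and Gas1 read 5909 in basal epidermis, 349 in matrix and 8133 in WT ORS. Smo, which transmits the signal, and Sufu, which restrains it, did not reach the threshold (1.12-fold and 1.67-fold).

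For the BMP pathway, Bmp4 and Bmp8a were 6.08-fold and at least 3.37-fold lower, and Bmp2, which read 6664 in basal epidermis and 2205 in matrix, was 3.02-fold higher. The receptor genes Bmpr1a and Bmpr2 stayed within the threshold, while Bmpr1b was at least 4.41-fold higher. The Id genes, direct targets of BMP signals, were lower in basal epidermis or close to the threshold. Id1 read 3337 in basal epidermis and 14862 in matrix (4.45-fold lower), Id2 and Id4 were 3.38-fold and 2.32-fold lower, and Id3 was 1.96-fold lower, short of the threshold. The feedback inhibitors Smad6, Smad7 and Bambi were 10.3-fold, 2.73-fold and 12.0-fold lower. The secreted antagonist Fst was 17.8-fold higher. In all, 8 of 13 measured antagonists, Smads and Id genes (61.5%, against 11.3% of all genes) were lower and 2 (15.4%, against 13.8%) higher.

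Of 22 measured Notch pathway genes, 5 (22.7%, against 11.3% of all genes) were lower and 2 (9.09%, against 13.8%) higher. Notch1, Jag1 and Jag2 read 4051, 6811 and 1576 in basal epidermis and 8071, 12633 and 1395 in matrix, within the threshold. Dimmer probe sets of Notch1 and Jag1 passed it, with log2 ratios of -1.30 for Notch1 and of -1.51 and -1.96 for Jag1. The target genes Hes1, Heyl, Hey1 and Nrarp were 3.6-fold, at least 4.65-fold, 2.59-fold and 2.81-fold lower. Dtx2 and Dtx4, which encode ubiquitin ligases of the pathway, were 3.28-fold and 3.63-fold higher. Of the EGF receptor ligands, Epgn read 14401 in basal epidermis and 1618 in matrix (8.9-fold higher). Tgfa and Hbegf were 7.65-fold and 6.07-fold higher. A dimmer probe set of Tgfa did not follow, with 118 in basal epidermis and 137 in matrix (log2 ratio -0.22). The receptor gene Egfr was within the threshold (1862 and 2830.3). Met, the receptor of hepatocyte growth factor, was 8.48-fold higher. On the matrix side stood Etv4 and Etv5, targets of FGF signals (8.9-fold and 2.43-fold lower), Fgf5, which ends hair growth (at least 4.95-fold lower), and Tnfrsf19, a receptor of the TNF family (2.56-fold lower).

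Most mitosis genes and some DNA replication genes were lower in basal epidermis. Of 39 measured mitosis genes, 31 (79.5%, against 11.3% of all genes) were lower and 0 higher, with a median of -1.45. Mki67, the proliferation marker, read 3633 in basal epidermis and 9534 in matrix (2.62-fold lower). Ccna2, Ccnb2, Aurka, Bub1 and Cdc25c were 3.35-fold, 3.21-fold, 3.89-fold, 4.7-fold and 5.57-fold lower. Of 38 replication genes 13 (34.2%) were lower and 0 higher (median -0.85). Scaled to the hybridisation controls, 36 mitosis and 28 replication genes were lower. E2f2, a transcription factor of the cycle, was 9.69-fold lower and the licensing factor gene Cdc6 4.52-fold lower. Pcna and Mcm4 were within the threshold (1.2-fold and 1.09-fold lower). WT ORS read close to basal epidermis for Mki67 (3834) and Ccna2 (1294). Of the inhibitors, Cdkn1a was 2.05-fold higher, and Cdkn2b and Cdkn1c 3.82-fold and at least 2.36-fold lower.

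Metabolic genes took different sides. Of 18 measured glycolysis and lactate genes, 9 (50%, against 13.8% of all genes) were higher and 0 lower (median 0.94). The glucose transporter gene Slc2a1 read 15659 in basal epidermis and 1731 in matrix (9.04-fold higher). Hexokinase Hk1, phosphofructokinase Pfkp and the lactate transporter Slc16a1 were 14.7-fold, 9.85-fold and 33.1-fold higher. The enzymes of cholesterol and fatty acid synthesis lay the other way. Of 26 measured, 16 (61.5%, against 11.3% of all genes) were lower and 0 higher (median -1.11). Scd2, a stearoyl-CoA desaturase, read 1179 in basal epidermis and 12890.4 in matrix (10.9-fold lower), while its relative Scd1 was within the threshold (6636 and 7506). Mvd, Fdps, Lss and Idi1 of the cholesterol route were 6.99-fold, 4.42-fold, 3.69-fold and 3.23-fold lower, and the desaturases Fads1 and Fads2 6.22-fold and at least 7.93-fold lower.

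Of 21 measured genes of polyamine, amino acid and one-carbon metabolism, 7 (33.3%, against 11.3% of all genes) were lower and 1 higher (median -0.38). The amino acid transporter genes Slc7a8 and Slc7a11 were 8.37-fold and at least 4.63-fold lower, and the mitochondrial folate enzyme gene Mthfd2 4.89-fold lower. The wider solute carrier family, counted after its values were seen, stood on both sides. Of 202 measured members 36 were higher and 24 lower, against 13.8% and 11.3% of all genes. Few ribosome biogenesis genes passed the threshold, with 3 of 33 members (9.09%, against 11.3% of all genes) lower and 0 higher (median -0.56). Scaled to the hybridisation controls, 17 were lower. Of 27 genes of glutathione and detoxification 10 (37.0%, against 13.8% of all genes) were higher and 2 (7.41%, against 11.3%) lower. Cyp2b10 was at least 16.2-fold, Gstm1 7.1-fold, Nqo1 5.1-fold and catalase (Cat) 4.7-fold higher. The glutathione synthesis gene Gclc was 2.98-fold lower. In retinoid metabolism the carrier gene Crabp2 and the degrading enzyme gene Cyp26b1 were 6.9-fold and at least 4.07-fold higher, while Stra6, which takes up retinol, was 5.02-fold lower beside Aldh1a3.

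Interferon-response and antigen-processing genes were higher in basal epidermis. Of 30 measured, 25 (83.3%, against 13.8% of all genes) were higher and 0 lower, with a median of 2.07. Oas1f, of a gene family that senses double-stranded RNA, read 2081 in basal epidermis and 48.9 in matrix, where it lay below the floor. The viral RNA sensor gene Ifih1 and Rtp4 were at least 14.8-fold and at least 20.2-fold higher. The immunoproteasome genes Psmb8, Psmb9 and Psmb10 were 13.9-fold, 7.53-fold and 3.54-fold higher, and the peptide transporter genes Tap1 and Tap2 7.28-fold and 5.94-fold. The MHC class I genes H2-K1, H2-D1 and B2m were 2.91-fold, 2.3-fold and 3.09-fold higher. Irf1, Irf7 and Irf9, transcription factors of the response, were 3.9-fold, 2.53-fold and 3.86-fold higher. For Psmb8 and Ifitm3 the WT ORS array read closer to basal epidermis, with 3100.1 and 19581. Basal epidermis read 5025 and 25904 for them, and matrix 362 and 3308. For Oas1f, WT ORS read 143, closer to the matrix value.

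Epidermal cytokine and receptor genes and antimicrobial genes lay on the same side. Of 32 measured cytokines, chemokines and receptors, 24 (75%, against 13.8% of all genes) were higher and 0 lower (median 1.86). The decoy receptor genes Il1r2, which binds IL-1, and Il22ra2, which binds IL-22, were at least 71.8-fold and at least 30.6-fold higher. Il1r2 read 5974 in basal epidermis, 48.3 in matrix and 823 in WT ORS. The alarmin gene Il33 and Tslp, which act on type 2 immunity, were at least 24.3-fold and at least 6.37-fold higher, and the chemokine gene Cxcl16 12.0-fold. Ccl20, a chemokine that attracts cells with the receptor CCR6, read 1195 in basal epidermis and 91.8 in matrix. Of 11 measured antimicrobial genes 8 (72.7%, against 13.8% of all genes) were higher. They were led by the defensin gene Defb1 (26.0-fold), S100a9 (at least 23.6-fold), the ribonuclease gene Ang (23.5-fold) and Lcn2, which withholds iron from bacteria (18.2-fold). The protease inhibitor gene Slpi was the exception (2.14-fold lower).

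Immune cell markers moved with these lists. Of 16 measured of 24 matched markers, 13 (81.2%, against 13.8% of all genes) were higher on the basal array and 0 lower. The summed signal of the markers was 13694 in basal epidermis and 2600.0 in matrix. The MHC class II genes H2-Aa and Cd74 were 9.6-fold and 7.93-fold higher, the leukocyte marker Ptprc read 223 and 21.0, and Thy1 1142 and 84.1. The T cell receptor component gene Cd3e and Cd207 of Langerhans cells were below the floor on both arrays. Their part in the interferon and cytokine ratios was not tested.

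**Figure D4:**
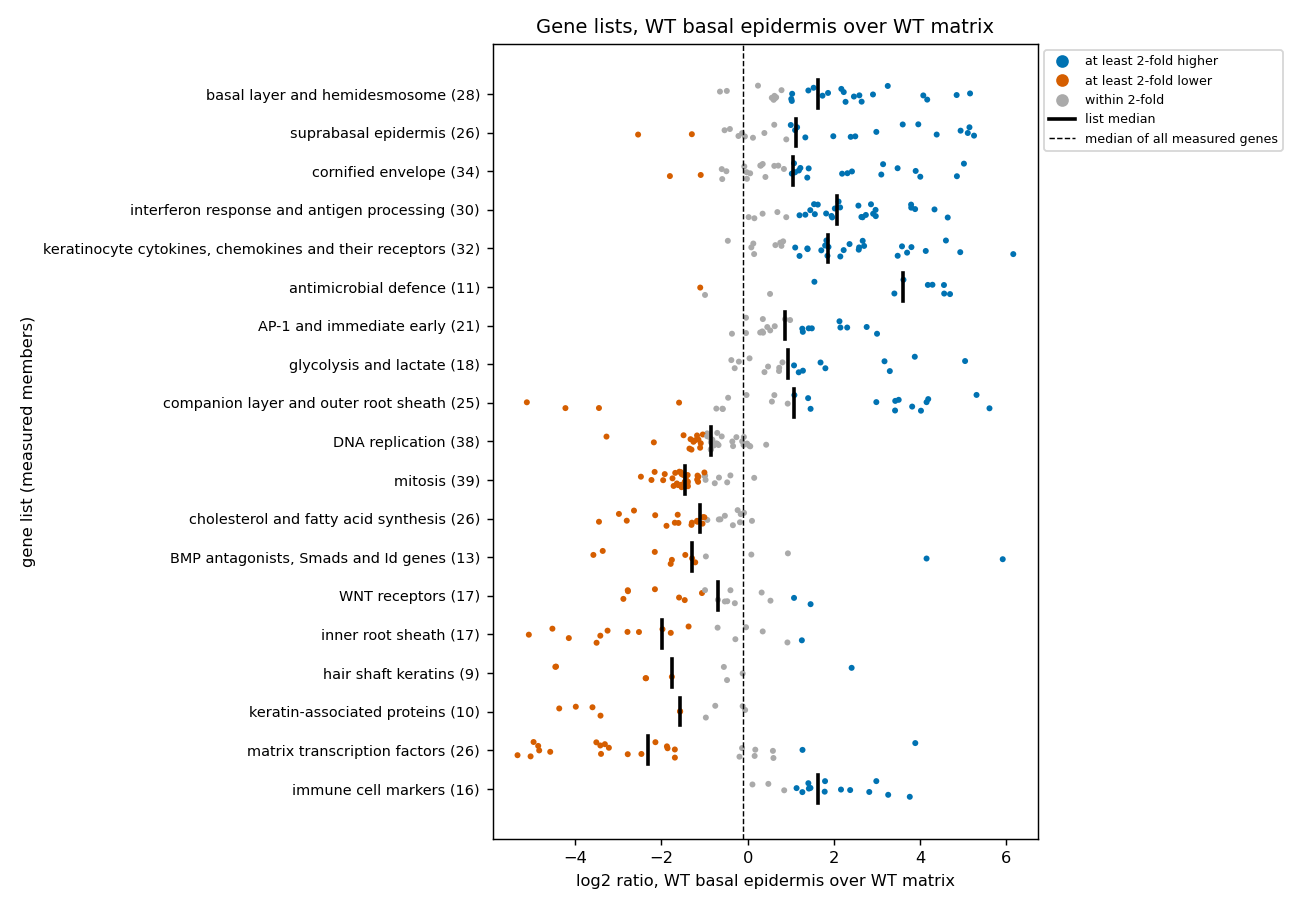
Log2 ratios of WT basal epidermis over WT matrix for the measured members of 19 gene lists, 1 point per gene, with the median of each list as a bar and the median of all measured genes as a dashed line. Interferon, cytokine and basal layer genes lie to the right, and sheath, matrix factor, mitosis and lipid synthesis genes to the left.

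The promoters of Ifit1, Oas1a and Bst2 are shown as those of list members that hold more than 1 copy of the core of the interferon-stimulated response element. Capitals mark this core, a pair of TTTC half-sites with any 2 bases between them, on either strand.

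Ifit1 promoter, chr19:34640639-34640938, plus strand: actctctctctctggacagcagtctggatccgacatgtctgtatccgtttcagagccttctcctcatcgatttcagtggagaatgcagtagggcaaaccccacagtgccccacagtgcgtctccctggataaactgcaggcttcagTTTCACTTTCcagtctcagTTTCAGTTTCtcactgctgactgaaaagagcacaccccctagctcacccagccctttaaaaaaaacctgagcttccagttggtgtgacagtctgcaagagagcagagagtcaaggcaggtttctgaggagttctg

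Oas1a promoter, chr5:120907476-120907775, minus strand: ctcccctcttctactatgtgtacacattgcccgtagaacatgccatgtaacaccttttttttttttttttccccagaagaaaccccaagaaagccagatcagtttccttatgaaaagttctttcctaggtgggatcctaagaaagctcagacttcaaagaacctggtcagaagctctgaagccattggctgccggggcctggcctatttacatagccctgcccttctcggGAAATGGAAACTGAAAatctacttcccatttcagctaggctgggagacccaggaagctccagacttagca

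Bst2 promoter, chr8:71537423-71537722, minus strand: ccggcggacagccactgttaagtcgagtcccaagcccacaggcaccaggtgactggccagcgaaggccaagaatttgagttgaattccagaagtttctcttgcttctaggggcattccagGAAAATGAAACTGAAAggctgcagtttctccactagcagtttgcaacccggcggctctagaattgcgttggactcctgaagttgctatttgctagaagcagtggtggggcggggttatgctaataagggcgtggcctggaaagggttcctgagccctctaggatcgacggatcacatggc

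Each holds 2 copies, overlapping in Oas1a and Bst2. Ifit1 was at least 4.32-fold, Oas1a 4.43-fold and Bst2 4.07-fold higher in basal epidermis. The motif occurs in 9 of 29 promoters of the list (31.0%), in 4.92% of the promoters of all higher genes, in 2.14% of those of lower genes and in 3.44% of all promoters. The promoters of the list members Tap1 and Psmb9 share 275 of 300 bases, so that a copy there can count for both genes. Many genes of the list are known as interferon targets through this element.

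AP-1 and immediate early genes, which respond to growth factors and to stress, were on the basal side or within the threshold. Of 21 measured, 9 (42.9%, against 13.8% of all genes) were higher in basal epidermis and 0 lower (median 0.87). Fosl1 read 14508 in basal epidermis and 1809 in matrix (8.02-fold higher), and Fosb, Ccn1 and Dusp1 were 4.96-fold, 6.79-fold and 4.38-fold higher. Fos, Jun and Egr1 read 23786, 26706 and 25356 in basal epidermis and 18791, 18569.6 and 19852 in matrix, all within the threshold. A dimmer probe set of Jun passed it, with 10243 in basal epidermis and 4647 in matrix (log2 ratio 1.14). The AP-1 motif TGANTCA, searched on both strands, occurs in 9.85% of promoters of higher genes, 3.96% of those of lower genes and 7.81% of all. Adh7, among the genes of the largest basal ratios, is an example that holds it, in capitals here.

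Adh7 promoter, chr3:138217523-138217822, plus strand: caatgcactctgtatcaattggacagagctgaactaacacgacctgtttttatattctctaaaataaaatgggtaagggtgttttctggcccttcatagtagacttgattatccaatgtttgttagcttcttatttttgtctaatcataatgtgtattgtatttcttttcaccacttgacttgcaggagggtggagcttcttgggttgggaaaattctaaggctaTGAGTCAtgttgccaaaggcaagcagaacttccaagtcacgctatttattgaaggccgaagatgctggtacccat

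Cell junction genes stood on both sides. Of 12 measured desmosome genes 1 (8.33%, against 13.8% of all genes) was higher, Pkp1 (2.8-fold). The 2 lower (16.7%, against 11.3%) were Dsc2 (2.98-fold) and Pkp2 (at least 5.22-fold). Both shares lay near those of all genes. Of 24 genes of cadherins, tight and gap junctions 3 (12.5%, against 13.8% of all genes) were higher and 7 (29.2%, against 11.3%) lower. E-cadherin (Cdh1) and the tight junction gene Cldn1 were 2.89-fold and 4.66-fold higher. On the matrix side stood Cldn8 (8.4-fold) beside Cldn10, and the gap junction genes Gjb2, which read 1073 in basal epidermis and 8747 in matrix (8.15-fold), and Gja3 (at least 10.2-fold). Gja1, a gap junction gene of keratinocytes, read 18448 in basal epidermis and 22974 in matrix, within the threshold. Of its other probe sets, 186 and 66.3 in basal epidermis stood against 1156 and 622 in matrix (log2 ratios of -2.64 and -2.90), past the threshold. The ratio of -2.90 is a bound, since 66.3 lies below the floor. In all, 7 genes named here as within the threshold had a dimmer probe set past it, the others being Itgav and Tcf7l1.

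Polycomb genes and Hox genes were examined because the series concerns them. Ezh2, the methyltransferase of Polycomb repressive complex 2, read 2563 in basal epidermis and 3578 in matrix (1.4-fold lower), and Ezh1 read 401 and 317 (1.27-fold higher), both within the threshold. Of 31 measured Polycomb genes 2, Pcgf5 (3.69-fold) and the demethylase gene Kdm6b (2.26-fold), were higher (6.45%, against 13.8% of all genes). The 5 lower were Cbx8 (3.56-fold), Cbx2 (3.03-fold), Phc1 (2.99-fold), Yaf2 (2.29-fold) and Pcgf6 (2.11-fold), which made up 16.1%, against 11.3% of all genes. These lower genes and Pcgf5 belong to Polycomb repressive complex 1. Hox genes stood on both sides. Hoxc4 and Hoxc5 were at least 5.12-fold and at least 4.54-fold higher, and Hoxb6, Hoxb3, Hoxb2 and Hoxb4 were 5.69-fold, 3.91-fold, 2.75-fold and 2.22-fold lower. Hoxd8 was 9.75-fold lower.

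Markers of other cells were read on both arrays. Of 14 measured melanocyte markers 2 (14.3%, against 13.8% of all genes) were higher and 3 (21.4%, against 11.3%) lower. Their summed signal was 7066 in basal epidermis and 13915 in matrix, and 6507 and 5622 without Gpnmb. The lower ones were Dct, Kit and Gpnmb (5.96-fold, at least 5.87-fold and 14.8-fold). Tyr and Mlana, which define the pigment cell, read 68.3 and 140.2 in basal epidermis and 95.6 and 153 in matrix, near the floor of 83.2. Of 19 measured fibroblast and dermal papilla markers 8 (42.1%, against 13.8% of all genes) were higher and 2 (10.5%, against 11.3%) lower. Their sums were 25133 in basal epidermis and 24537 in matrix, and 24088 and 13328 without Dcn. Vim and Sparc were 2.99-fold and 3.33-fold higher, Col1a1 read 910.0 and 633, and Dcn, a proteoglycan, read 1045 in basal epidermis and 11209.8 in matrix (10.7-fold lower). Sebocyte genes included Plin2 and Acsbg1 higher (3.97-fold and at least 10.6-fold) and Fabp4 lower (4.71-fold), with Scd1, Cidea and Elovl3 within the threshold. Endothelial, muscle and Merkel markers had at most 1 member past the threshold in a direction. Whether such cells add to the ratios above was not tested.

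The same pair of populations from 2KO mice, which shares no array with the WT pair, gave fewer calls. Of 11913 genes measured there, 869 (7.29%) were at least 2-fold higher and 822 (6.9%) lower in 2KO basal epidermis than in 2KO matrix. Of the WT higher genes 600 (38.5%) passed the threshold the same way, and 32 passed it the other way. Of the WT lower genes these numbers were 413 (32.3%) and 8. Counted from the 2KO side, WT called the same way 69.0% of the 2KO higher genes and 50.2% of the 2KO lower genes. The largest WT differences were found again more often. Past 8-fold, 79.4% of higher and 85.3% of lower genes passed 2-fold in 2KO as well. The 2KO pair differs in genotype and in the sex of its basal sample, and is no replicate of the WT pair. The 2KO matrix array also had a 3-prime to 5-prime Actb ratio of 1.87, against 1.39 and 1.49 on the WT basal and matrix arrays. Its median signal was 92.2, against 72.4 and 75.9. Whether these array differences bear on the number of calls was not tested.

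**Figure D5:**
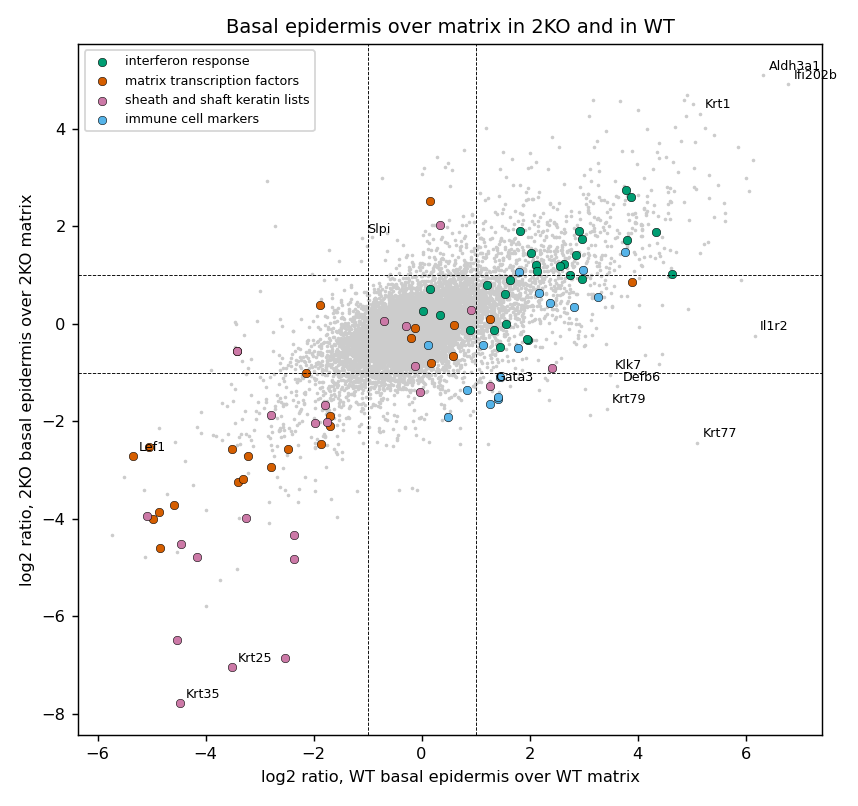
Log2 ratios of basal epidermis over matrix in the 2KO pair (vertical) against the WT pair (horizontal), 1 point per gene measured in both, with dashed lines at 2-fold. Hair keratins and matrix factors lie at the lower left in both pairs, and Krt77, Krt79, Klk7 and Defb6 lie at the lower right.

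Hair keratins had large ratios in 2KO as well. Krt35 read 36.5 in 2KO basal epidermis and 18316 in 2KO matrix (at least 220.2-fold lower), and Krt25 read 84.4 and 11127 (132-fold lower). The matrix factors had a median log2 ratio of -1.99 in the 2KO pair and -2.30 in the WT pair. Basal layer and interferon genes had medians of 0.81 and 1.01 in 2KO, against 1.63 and 2.07 in WT. For mitosis and replication the 2KO medians were -0.57 and -0.19, against -1.45 and -0.85 in WT. The immune markers had a 2KO median of -0.42, against 1.62 in WT, and the AP-1 list -0.36 against 0.87. Glycolysis genes had medians of 1.14 in 2KO and 0.94 in WT. None of these differences between genotypes was tested.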

How the data were processed

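RNA of FACS-sorted skin cells was hybridised to 6 Affymetrix mouse arrays, 1 for each genotype and population. The labels name the platform as MOE430A 2.0 and the series text as MOE430v2, and each table holds 45101 probe sets. The deposited intensity values are signals on a linear scale from MAS5, per the submitters' processing notes, and their trimmed mean is 500 on every array. The series text adds that image background was subtracted. No software version is given in the sources used here. After removal of 64 control probe sets, 34958 probe sets named 1 gene in GEO's platform annotation, 932 named several and were left out, and 9160 were unlisted and not named. Of the gene IDs, 99.4% were found in RefSeq GRCm38.p6.

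The deposited scaling was kept. Of a gene's probe sets, the one brightest on average on the log2 scale across all 6 arrays stood for it (18193 genes), and signals below the 50th percentile of all signals (83.2) were raised to it. The text names the markers, the 25 genes at each end of the ratios, members of 47 gene lists with the largest ratios first, and genes whose probe sets disagree. Of 1263 list entries, 1187 distinct genes were matched by current symbol and 64 were not. The members and lists were chosen with earlier results of these data known. Other scalings (common median, quantile, hybridisation controls, loess with a span of 0.4), floors at the 25th and 75th percentiles, other choices of probe set and a threshold of 4-fold were tried. With 1 array per group the number of arrays limits the precision, which cannot be estimated. The steps were tried on simulated data in which only genes well above the floor in matrix were changed. Ratios bounded by the floor were thus not covered. Python 3.11.15 with pandas 2.3.3, numpy 2.4.6, statsmodels 0.14.6 and matplotlib 3.10.9 was used.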

Additional observations from a re-analysis of the deposited data

Results flagged for a closer look

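Among the genes named here, 7 passed the threshold in both genotypes but in opposite directions. Krt77, an epidermal keratin, read 112 in 2KO basal epidermis and 608 in 2KO matrix (log2 ratio -2.44), against 7616 in WT basal epidermis and 221 in WT matrix (5.11). Krt79 of the upper follicle read 5840.2 in 2KO basal epidermis and 19517 in 2KO matrix (-1.74), against 11582 in WT basal epidermis and 1077 in WT matrix (3.43). Both keratins were thus brighter on the matrix array of the 2KO pair and on the basal array of the WT pair.

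The kallikrein gene Klk7 had log2 ratios of -1.04 in 2KO and 3.48 in WT, and the defensin gene Defb6 -1.28 in 2KO and 3.62 in WT. Gata3 read 954 in 2KO basal epidermis and 2324 in 2KO matrix (-1.29), against 3690.2 in WT basal epidermis and 1542 in WT matrix (1.26). The leukocyte gene Ptprc had log2 ratios of -1.55 in 2KO and 1.42 in WT. Both are bounds, since 2KO basal epidermis (68.7) and WT matrix (21.0) lay below the floor. Slpi turned the other way and read 7378 in 2KO basal epidermis and 2179 in 2KO matrix (1.76), against 989 in WT basal epidermis and 2119.8 in WT matrix (-1.10). With 1 array per group these differences between genotypes were not tested.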

How the results depend on the processing

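No paired analysis was possible because each group has 1 array. Of 277 named genes past the threshold, Krt23 not counted, 174 stayed past it under all 8 alternatives of scaling, floor and probe set. A further 59 lost the call under at least 1, and 44 had no value under some and kept the call under the others. Hivep3, whose probe sets disagree, turned to a log2 ratio of -0.985 with the mean over its probe sets, and no other named gene turned. Scaled to the hybridisation controls, 2917 genes were lower, and 14 named genes, Cdkn1a, Gata3, H2-D1, Hivep3, Irf7, Itga3, Itgb1, Kdm6b, Klf4, Krt17, Plec, Ror1, Vdr and Wnt10a, were no longer called. With loess 6 calls were lost (Cdkn1a, Dlx5, Ivl, Klf4, Pcgf6 and Slpi). With the mean over probe sets 6 were lost (Bmpr1b, Cdkn1a, Etv5, Itga3, Kdm6b and Lgr6). Without cross-hybridising probe sets 3 were lost (Fabp4, Lrig1 and Plet1), and with quantile normalization 3 (Cdkn1a, Ivl and Klf4). Calls were gained too, 7 with the hybridisation controls (Axin2, Egfr, Id3, Jag1, Notch1, Sufu and Tcf7l1), 3 with the mean over probe sets (Gja1, Jag1 and Notch1), 3 with quantile normalization (Id3, Jag1 and Notch1) and 1 with loess (Id3). The higher floor left 842 higher and 622 lower genes and ended 38 named calls. At 4-fold 631 were higher and 238 lower.

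Of 45 list medians, 36 kept their sign, though the endothelial list had no measured member at the higher floor. With the hybridisation controls the log2 medians of WNT ligands, of EGF, FGF and EDA signalling and of retinoid metabolism turned to -0.124, -0.183 and -0.328, against 0.31, 0.27 and 0.11. The lower floor gave -0.197 for the EGF list, -0.14 for retinoids and 0.0492 for muscle markers. The higher floor gave 1.1 for muscle and 0.113 for melanocyte markers, against -0.09 and -0.15. Loess gave 0.0197 for BMP ligands and receptors and 0.0579 for the Notch list, against -0.09 and -0.05. Hox genes moved to 0.0572 with a common median, 0.0543 with quantile normalization and 0.126 without cross-hybridising probe sets, against -0.14. That last choice gave 0.276 for WNT antagonists, against -0.73. The cause was not tested. List counts moved too. With the hybridisation controls 12 of 36 cornified envelope genes were higher, against 18 of 34. Barrier lipid genes had 8 of 27 higher, against 12. Of the developmental factors 33 of 119 were higher, against 47 of 114. For both the AP-1 and the glycolysis list 6 were higher, against 9. The higher floor left 2 of 14 WNT receptors lower, against 7 of 17, while 9 of 18 were lower with the hybridisation controls. Signals near the floor give only bounds.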

Other observations

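The families in this paragraph were chosen after their values were seen. All 3 measured Clca genes were higher in basal epidermis, and Clca2 read 2113 in basal epidermis and 66.2 in matrix. Of 12 measured genes of the clade B serpins, mostly intracellular protease inhibitors, 8 were higher and 0 lower, against 13.8% and 11.3% of all genes. Serpinb2 read 18584 in basal epidermis, 688 in matrix and 980.5 in WT ORS, and Serpinb1a read 2505 in basal epidermis and 25.7 in matrix (at least 30.1-fold higher). The matrix metalloprotease genes Mmp3 and Mmp13, which cut extracellular matrix, were at least 10.3-fold and at least 8.74-fold higher. The aquaporin gene Aqp3, which carries water and glycerol in the epidermis, read 7638 in basal epidermis and 491 in matrix (15.5-fold higher). Of 24 measured collagen genes 12 were higher and 0 lower, against the same 13.8% and 11.3% of all genes.

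Guidance genes stood on both sides. The semaphorin genes Sema3d and Sema3c were at least 15.4-fold and 16.9-fold higher in basal epidermis, and Sema4g was 6.17-fold lower. The ephrin gene Efnb1 read 747 in basal epidermis and 2613 in matrix (3.5-fold lower), and the Eph receptor gene Ephb6 read 1461 in basal epidermis and 136 in matrix (10.7-fold higher).

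Hivep3 was the 1 gene with probe sets past the threshold in opposite directions. Its brightest probe set read 1271 in basal epidermis and 624 in matrix (log2 ratio 1.03). Its other measured probe sets past the threshold read 183 in basal epidermis and 795 in matrix (-2.12), and 150.2 in basal epidermis and 545 in matrix (-1.86). Of 2726 measured probe sets without a listed gene, 228 (8.36%) were higher and 359 (13.2%) lower in basal epidermis.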
